A study of Rattus norvegicus with 12 samples.

Results

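The amino acid transporter families examined here are Slc1, Slc3, Slc6, Slc7, Slc36, Slc38 and Slc43. Their members were taken from the deposited table by gene name, keeping every gene with an RPKM above 0 in at least 1 of the 12 livers, and a gene with several listed transcripts is represented by the most abundant of them. This gave 40 genes of the 15270 detected in these livers. The members are 6 genes of Slc1, 2 of Slc3, 8 of Slc6, 11 of Slc7, 3 of Slc36, 7 of Slc38 and 3 of Slc43. One of them, Slc7a6os, is named for its place on the strand opposite Slc7a6 and is not a transporter, so 39 members are transporters. A further 18 listed names of these families were at 0 in every liver, among them Slc6a19, Slc7a9, Slc7a3 and Slc38a5.

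All 12 animals were female rats of the inbred alcohol-preferring line iP10a. The 6 EtOH animals chose freely between water and bottles of 10, 20 and 30% ethanol for 23 weeks, and the 6 Control animals had water only. All were 38 weeks old at collection except EtOH animal 6, at 39 weeks. As a model, this is one inbred line bred to prefer alcohol, with ethanol taken at will, and blood ethanol was undetectable at sacrifice per the study's methods. Poly(A) RNA of whole liver was sequenced, 1 library per animal, and levels are RPKM, reads scaled to the length of the transcript and to the mapped reads of the library, so that levels can be compared between genes.

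Amino acid transporters of the plasma membrane set how much of each amino acid a hepatocyte draws from portal blood or returns to it. Slc38 and Slc1 proteins concentrate amino acids by coupling them to sodium, most Slc7 proteins exchange one amino acid for another and need a heavy chain of the Slc3 family to reach the membrane, and Slc36 and a few Slc38 proteins work in lysosomes. The liver is known for its strong glutamine, alanine and arginine uptake, and for glutamate uptake by the hepatocytes around the central vein.

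Recovered reads, the whole numbers of reads behind the RPKM values, ranged from 2610238 to 4318141 per Control liver and from 3945593 to 6030028 per EtOH liver, so low values in EtOH livers rest on more reads. Hepatocyte markers dominated every library, with a summed RPKM of 85040 to 113240 in Control livers and 93506 to 119631 in EtOH livers over the 6 of 7 markers found by name. The liver of Control animal 3 had the lowest median correlation with its own group of the 12 livers (0.9303 on the log2 scale, across transcripts). It also held the highest Control value of Slc38a3, Slc6a13, Slc3a2 and Slc7a5 and the lowest of Slc38a4, Slc7a2, Slc1a2 and Slc38a2. In bulk liver, fewer cells of a type and less RNA per cell cannot be told apart.

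Of the 40 members, Slc38a4 rose and Slc3a2 fell in EtOH livers, and 38 were not called. Slc38a4 is a sodium-coupled carrier of small neutral amino acids, and Slc3a2 is the heavy chain, also known as CD98, that the Slc7 light chains pair with. A call is an adjusted p below 0.05 from limma on quantile-normalized log2(RPKM + 0.5), adjusted by Benjamini-Hochberg over all 21718 transcripts tested. Over all of these, 2.42% were called, 1.13% as higher and 1.29% as lower. At an unadjusted p below 0.05 stood 11 members, against 15.5% of all transcripts, and all 11 were among the 21 members with a mean RPKM of at least 1, where 24.3% of all transcripts of that level passed. Slc7a6os, which is not a transporter, is among these 11. Among transcripts of that level 4.47% were called, against 2 of the 21 members. The median log2 fold change was 0.006 over the members and 0.0002 over all transcripts tested. The fitted log2 fold changes are on the quantile-normalized scale and can therefore differ from the plain ratio of mean RPKM. That ratio is given beside only some of them. For Slc38a2 it was 1.03, with a fitted log2 fold change of 0.18.

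**Figure D1:**
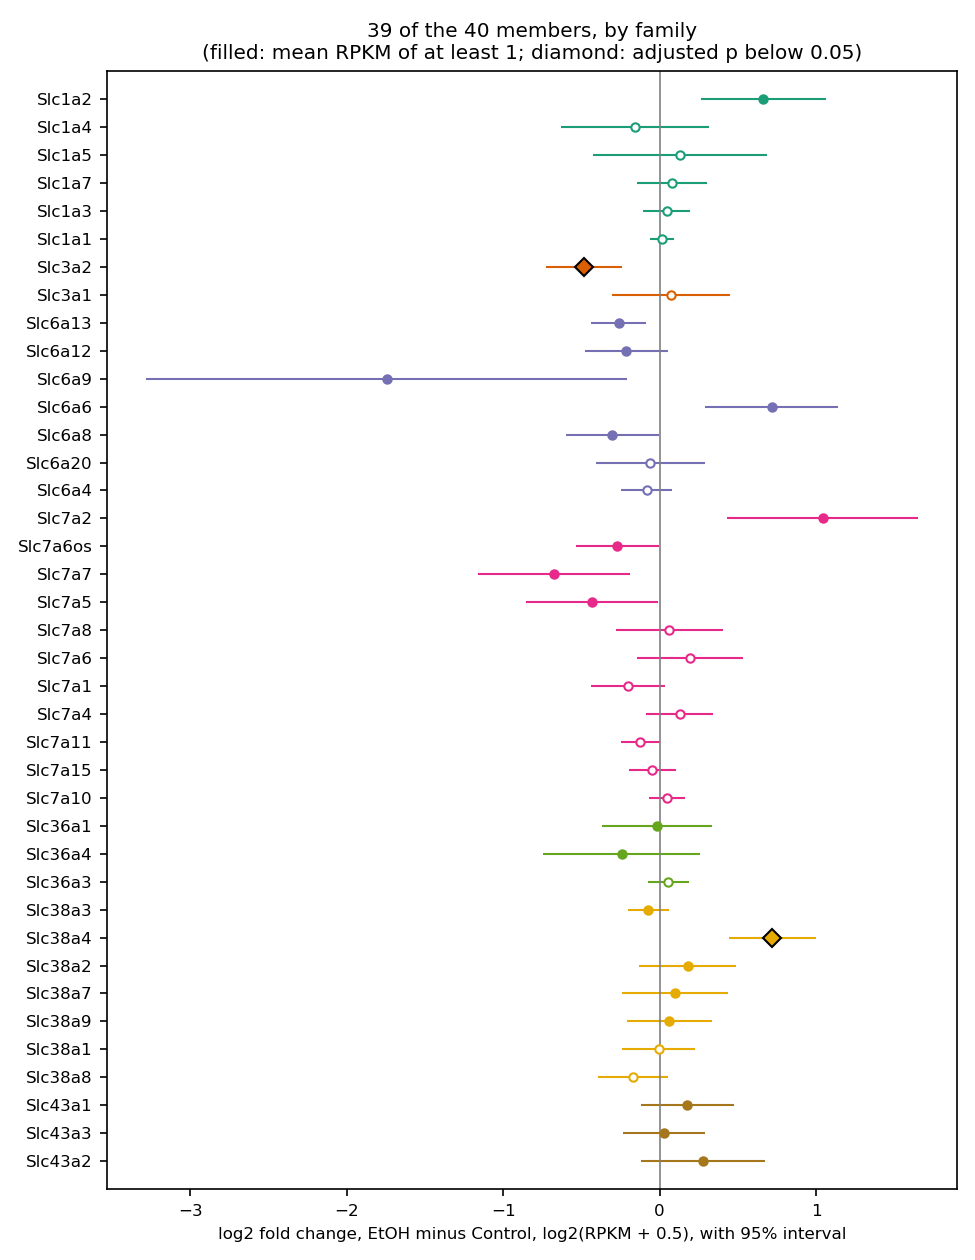
Log2 fold change (EtOH minus Control, on the log2(RPKM + 0.5) scale after quantile normalization) of 39 of the 40 members with 95% intervals, grouped by family and ordered by level within it, filled where the mean RPKM is at least 1 and drawn as diamonds where the adjusted p is below 0.05. Slc38a4 at 0.72 and Slc3a2 at -0.48 are the called members, and Slc6a9 has by far the widest interval.

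The Slc38 family made up most of the transporter RNA, 68.1% of the summed RPKM of the members in Control livers and 68.8% in EtOH livers. Its 2 main genes were Slc38a3, the system N carrier that moves glutamine, asparagine and histidine, and Slc38a4. Slc38a4 (chromosome 7, positions 135693016 to 135750703 as the authors list them) ranged from 142 to 187 RPKM with a median of 165 in Control livers, and from 193 to 351 with a median of 243 in EtOH livers. Every EtOH liver was above every Control liver, with EtOH animal 5 highest and EtOH animal 1 lowest of the treated group. Such separation of the groups was found for 2 members, Slc38a4 and Slc7a2, and for 3.10% of all transcripts (5.76% of those averaging 1 RPKM or more). The mean rose from 166 ± 16.5 to 255 ± 55.1 RPKM (SD, n = 6 per group), a ratio of 1.54 (log2 fold change 0.72 with a standard error of 0.13, limma adjusted p = 0.016). Its call was kept when any 1 liver was left out, with an adjusted p of at most 0.042 and a log2 fold change between 0.63 and 0.78.

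The promoter window of Slc38a4 in RefSeq is shown because this gene rose while its neighbours did not pass the test. The window runs from 250 bases before the annotated start to 50 after it (GRCr8, chr7:130082120-130082419, minus strand), and the capitals mark a CCAAT box read on the opposite strand, at bases 187 to 191 of the window:
Slc38a4: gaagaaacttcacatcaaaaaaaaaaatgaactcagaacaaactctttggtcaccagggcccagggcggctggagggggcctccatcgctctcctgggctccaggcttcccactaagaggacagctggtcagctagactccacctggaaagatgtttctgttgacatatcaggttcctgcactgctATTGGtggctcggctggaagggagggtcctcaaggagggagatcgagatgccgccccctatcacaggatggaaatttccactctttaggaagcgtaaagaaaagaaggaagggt
CCAAT was searched on both strands, and 37.5% of the 33469 windows in the table hold it.

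Slc38a3 (chromosome 8) was the most abundant member of all. It ranged from 347 to 468 RPKM with a median of 367 in Control livers, and from 286 to 377 with a median of 338 in EtOH livers. The groups overlapped, and the highest value of all was that of Control animal 3. Its log2 fold change was -0.07 (95% interval -0.20 to 0.06, adjusted p = 0.65 from limma). The plain means of Slc38a3 were 381 ± 44.6 and 337 ± 29.8 RPKM (SD, n = 6 per group), a ratio of 0.88. Without normalization between livers its log2 fold change was -0.17 (adjusted p = 0.30 from limma). Slc38a2, the widely expressed system A carrier that responds to amino acid shortage in many cells, lies beside Slc38a4 on chromosome 7 (positions 135365172 to 135377341). It ranged from 15.8 to 23.0 RPKM in Control livers (median 18.6) and from 14.98 to 24.3 in EtOH livers (median 19.6), with a log2 fold change of 0.18 (95% interval -0.13 to 0.49, adjusted p = 0.63 from limma). The groups overlapped over nearly their whole range. Slc38a1, the third gene of this stretch of chromosome 7, had 2 recovered reads in all Control livers together and 3 in all EtOH livers.

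The log2 ratio of 2 members was taken within each liver, with 0.5 RPKM added to each level. Scaling between livers enters it only through this added value. The 5 pairs given here were chosen after the values were seen, so the ratios are a description, with no test. The log2 ratio of Slc38a4 to Slc38a3 averaged -1.20 ± 0.289 in Control livers and -0.43 ± 0.199 in EtOH livers (SD, n = 6 per group), without overlap between the groups. That of Slc38a4 to Slc38a2 averaged 3.09 ± 0.0789 and 3.66 ± 0.389 (SD, n = 6 per group), with overlap.

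**Figure D2:**
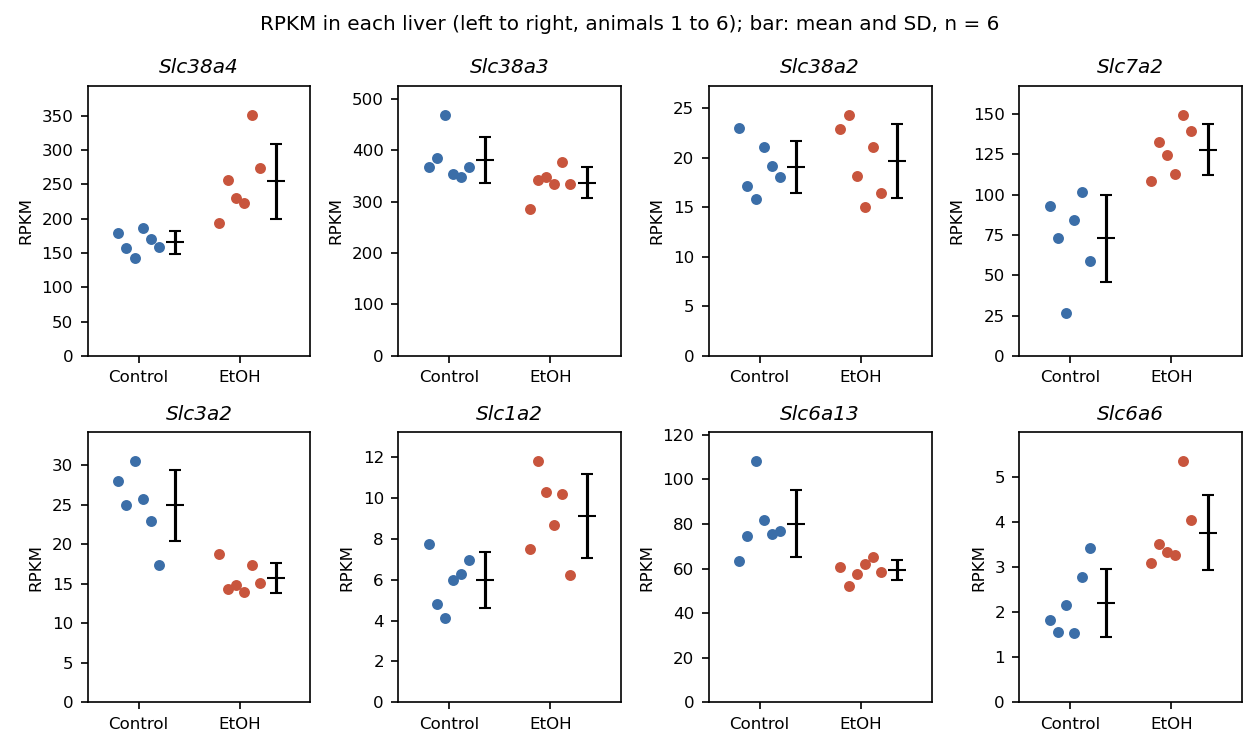
RPKM in each of the 6 Control and 6 EtOH livers for 8 members, 1 panel per gene with its own linear axis from 0, points ordered by animal number, and the mean with its SD beside them. The EtOH points of Slc38a4 and Slc7a2 lie above all Control points, and those of the other genes overlap with the Control points.

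The remaining Slc38 members were low, and none was called. Slc38a9, the lysosomal arginine sensor of the mTORC1 pathway, lay at 3.17 ± 0.540 RPKM in Control livers and 3.20 ± 0.438 in EtOH livers (SD, n = 6 per group), with a 95% interval of -0.21 to 0.34 for its log2 fold change. Slc38a7, a lysosomal glutamine carrier, lay at 3.85 ± 0.747 and 3.95 ± 0.674 (SD, n = 6 per group). Slc38a8 was seen as 2 reads in Control livers and 0 in EtOH livers.

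Among the cationic amino acid transporters, Slc7a2 carried nearly all of the signal. Slc7a2, known as CAT-2, brings arginine, lysine and ornithine into hepatocytes. It (chromosome 16, positions 54752119 to 54805406) ranged from 26.6 to 101 RPKM with a median of 78.6 in Control livers, and from 108 to 149 with a median of 129 in EtOH livers. No EtOH liver overlapped a Control liver, and the widest spread was among the Control livers, where animal 3 was lowest. The means were 72.9 ± 27.1 and 128 ± 15.8 RPKM (SD, n = 6 per group), a ratio of 1.75. The log2 fold change of 1.04 (standard error 0.28) was not called (adjusted p = 0.077 from limma). An unadjusted two-sided exact permutation test of the RPKM gave p = 0.0022, the lowest this design can reach. Any groups without overlap give this p, so it adds nothing to their separation. Without Control animal 3 the log2 fold change was 0.76 and the gene was called (adjusted p = 0.017 from limma). It was called in only 1 of the 12 fits with a liver left out, with an adjusted p of up to 0.145 from limma. Of the 12 other settings 3 called it and 9 did not, the unmoderated pooled test on square-root values among the latter (adjusted p = 0.072). It was called with limma on square-root values, with limma voom on recovered reads, where 3 members were called against 2.41% of all transcripts, and when only transcripts averaging 1 RPKM or more were tested, where 5 of 21 members (Slc38a4, Slc3a2, Slc7a2, Slc6a6 and Slc1a2) were called against 7.76% of transcripts (adjusted p from 0.033 to 0.040 in these 3 fits). As for Slc38a4, EtOH animal 5 was the highest and EtOH animal 1 the lowest of the treated livers.

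The other cationic carriers were near the detection limit. Slc7a1, the CAT-1 carrier of most other tissues, is known to be scarce in liver and had 16 recovered reads from Control livers and 11 from EtOH livers. Its highest liver was at 0.264 RPKM in the Control group and at 0.0983 in the EtOH group, and each group had a liver at 0. Slc7a4 had 1 and 5 reads. A change in either was not detectable at this depth.

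Slc3a2 (chromosome 1, positions 211375889 to 211390313) ranged from 17.4 to 30.5 RPKM with a median of 25.4 in Control livers, and the EtOH livers of animals 1 to 6 were at 18.8, 14.3, 14.9, 13.98, 17.4 and 15.1 RPKM. The groups overlapped through Control animal 6, the lowest of its group, and EtOH animal 1, the highest of its group. The mean fell from 24.9 ± 4.50 to 15.7 ± 1.91 RPKM (SD, n = 6 per group), 1.58 times lower in EtOH livers (log2 fold change -0.48 with a standard error of 0.11, limma adjusted p = 0.046). This call was close to the threshold. It was lost when any one of EtOH animals 2 to 6 or Control animals 1 to 5 was left out (adjusted p from 0.059 to 0.098 from limma) and kept without Control animal 6 (adjusted p = 0.012) or EtOH animal 1 (adjusted p = 0.041). The log2 fold change stayed between -0.56 and -0.43 in these fits. The call was also lost without the mean-variance trend (limma adjusted p = 0.063) and on square-root values (adjusted p = 0.052 with limma and 0.080 with the unmoderated pooled test).

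Of the RefSeq promoter windows of Slc3a2, the one at GRCr8 chr1:215039621-215039920, minus strand, is shown for the same reason as that of Slc38a4, the gene being called. The capitals mark the core letters of the antioxidant response element, TGACNNNGC, read on the opposite strand at bases 206 to 214 of the window:
Slc3a2: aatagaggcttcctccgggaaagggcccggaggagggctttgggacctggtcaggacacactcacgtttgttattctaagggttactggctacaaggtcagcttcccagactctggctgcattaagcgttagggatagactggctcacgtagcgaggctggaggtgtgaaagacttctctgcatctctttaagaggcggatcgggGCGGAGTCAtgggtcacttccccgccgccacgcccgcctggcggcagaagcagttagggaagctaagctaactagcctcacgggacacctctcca
These letters are in 12.1% of all windows, and the other window listed for Slc3a2 (chr1:215048015-215048314) holds none of the 3 motifs searched. They were found in 8 of the 34 windows of the members, belonging to Slc36a1, Slc38a2, Slc38a8, Slc3a1, Slc3a2, Slc6a6, Slc7a1 and Slc7a7. CCAAT was found in 8 of the 34 and the core of the C/EBP-ATF response element, TGATGNAA, in 3 (Slc1a4, Slc38a1 and Slc7a1), against 3.98% of all windows. Windows were listed for 30 of the 40 members.

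The light chains that pair with Slc3a2 were present at much lower levels than the heavy chain itself, and none was called. Slc7a7, the y+LAT1 chain that exports cationic amino acids and is also known from macrophages, ranged from 4.00 to 7.47 RPKM in Control livers (median 5.94) and from 1.96 to 4.96 in EtOH livers (median 3.26). It was added to the named genes after its values were seen. Its log2 fold change was -0.67 (95% interval -1.16 to -0.19, adjusted p = 0.15 from limma). Slc7a5, the LAT1 chain that exchanges leucine and other large neutral amino acids, ranged from 3.87 to 6.59 RPKM in Control livers (median 4.85) and from 1.96 to 4.29 in EtOH livers (median 3.81). For Slc7a5 the log2 fold change was -0.43 (95% interval -0.85 to -0.01, adjusted p = 0.31 from limma). Both light chains had lower means in EtOH livers and overlapping groups.

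Within each liver, the log2 ratio of Slc7a5 to Slc3a2 averaged -2.18 ± 0.303 in Control livers and -2.04 ± 0.495 in EtOH livers (SD, n = 6 per group). That of Slc7a7 to Slc3a2 averaged -2.02 ± 0.552 and -2.13 ± 0.503 (SD, n = 6 per group). The groups overlapped in each of these ratios. Slc7a8, the LAT2 chain, lay at 0.919 ± 0.226 RPKM in Control livers and 1.01 ± 0.0851 in EtOH livers (SD, n = 6 per group), and Slc7a6, the y+LAT2 chain, at 0.334 ± 0.149 and 0.492 ± 0.180 (SD, n = 6 per group). Slc7a11, the cystine-glutamate exchanger xCT, was near 0, with 8 recovered reads from Control livers and 2 from EtOH livers (adjusted p = 0.34 from limma). It was above 0 in 4 Control livers and in 1 EtOH liver. The second heavy chain, Slc3a1, which forms the kidney cystine carrier together with Slc7a9, lay at 0.532 ± 0.191 and 0.608 ± 0.171 RPKM (SD, n = 6 per group), and its partner was at 0 in every liver.

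Kupffer cell markers are given beside Slc7a7 because macrophages are known to express it. Of 10 such markers 9 were found, with a summed RPKM of 196 to 302 in Control livers and 258 to 318 in EtOH livers. Clec4f, Cd163 and Vsig4 were called higher and none was at 0. Over all transcripts 1.13% were called higher, and 4.47% of those averaging 1 RPKM or more were called in either direction. All 9 had a log2 fold change above 0, from 0.23 for Cd68 to 1.03 for Csf1r. The summed ranges of the groups overlapped, and the part of these cells in the Slc7a7 values was not tested. Slc7a6os, not a transporter, lay at 7.34 ± 1.21 RPKM in Control livers and 5.57 ± 1.03 in EtOH livers (SD, n = 6 per group, adjusted p = 0.32 from limma).

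In the Slc1 family a single gene accounted for 82.5% of the summed RPKM in Control livers and 86.9% in EtOH livers. This was Slc1a2, the glutamate transporter GLT-1, which in liver marks the hepatocytes around the central vein. It ranged from 4.10 to 7.73 RPKM (median 6.13) in Control livers and from 6.24 to 11.8 (median 9.40) in EtOH livers. EtOH animal 6 was the lowest treated liver and, with EtOH animal 1, lay within the range of the Control livers. The log2 fold change was 0.66 (95% interval 0.27 to 1.06, adjusted p = 0.083 from limma), which was not called. Without EtOH animal 6 it was 0.78 and called (adjusted p = 0.045 from limma). The gene was called in only 1 of the 12 fits with a liver left out, with an adjusted p of up to 0.16 from limma. With the RPKM of all 6 listed Slc1a2 transcripts added up, the level rose from 6.80 ± 1.31 to 10.5 ± 1.84 RPKM (SD, n = 6 per group, log2 fold change 0.70, adjusted p = 0.035 from limma).

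Markers of the same zone were mixed. Of 8 pericentral markers 6 were found, and of these Oat rose and Lgr5 fell, Lgr5 from a mean of 0.119 RPKM. Their summed RPKM was 2067 to 2737 in Control livers and 2804 to 3337 in EtOH livers. Of 7 periportal markers 6 were found, and Gls2, Sds and Pck1 rose, with a summed RPKM of 1859 to 2215 and 2359 to 4254. Both sums were higher in all EtOH livers than in all Control livers. Most of each sum came from a single gene that was not called. These were Cyp2e1 (means 2187 and 2731 RPKM, adjusted p = 0.072 from limma) and Ass1 (1490 and 2008 RPKM, adjusted p = 0.061 from limma). Over all transcripts 1.13% were called higher and 1.29% lower. The part of either list in the Slc1a2 values was not tested.

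The other Slc1 genes were scarce. Slc1a4, the ASCT1 carrier of alanine, serine and cysteine, lay at 1.01 ± 0.357 RPKM in Control livers and 0.899 ± 0.309 in EtOH livers (SD, n = 6 per group). Slc1a5, the glutamine carrier ASCT2 that is known from dividing cells, had 12 recovered reads from Control livers and 23 from EtOH livers. Its median was 0.169 RPKM in Control livers and 0.175 in EtOH livers, with highest values of 0.582 and 0.796 and lowest values of 0. Of the brain and epithelial glutamate carriers, Slc1a1 was seen in 1 read, Slc1a3 in 2 Control and 7 EtOH reads, and Slc1a7 in 3 and 8.

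No Slc6 member was called. An unadjusted p below 0.05 (limma) was found for 4 of the 8. Of all transcripts 15.5% had such a p, and 24.3% of those averaging 1 RPKM or more. Slc6a9 is among the 4 through its listed transcript, and with its transcripts added up the unadjusted p was 0.15 (limma). Slc6a13, the GAT-2 carrier of GABA and taurine, led the family. It ranged from 63.5 to 108 RPKM with a median of 76.2 in Control livers and from 52.2 to 65.1 with a median of 59.6 in EtOH livers. Control animal 1 was the only Control liver within the range of the EtOH livers. The log2 fold change was -0.26 (95% interval -0.44 to -0.09, adjusted p = 0.12 from limma). Without normalization between livers it was -0.41 and called (adjusted p = 0.047 from limma).

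The gene next to it, Slc6a12 (chromosome 4), encodes the betaine carrier BGT-1 and lay at 11.2 ± 1.24 RPKM in Control livers and 8.90 ± 1.66 in EtOH livers (SD, n = 6 per group, adjusted p = 0.46 from limma). The log2 ratio of Slc6a13 to Slc6a12 within each liver averaged 2.78 ± 0.396 and 2.69 ± 0.198 (SD, n = 6 per group), with overlap. Slc6a8, the creatine carrier, lay at 2.19 ± 0.336 and 1.67 ± 0.265 RPKM (SD, n = 6 per group, adjusted p = 0.31 from limma).

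Slc6a6, the taurine carrier TauT, had its higher mean in EtOH livers. It ranged from 1.53 to 3.43 RPKM with a median of 1.99 in Control livers and from 3.10 to 5.34 with a median of 3.42 in EtOH livers, on 127 and 286 recovered reads. Control animal 6 was the only Control liver within the range of the EtOH livers, and EtOH animal 5 was again highest and EtOH animal 1 lowest of the treated group. The log2 fold change was 0.72 (95% interval 0.29 to 1.14, adjusted p = 0.079 from limma), which was not called. Without Control animal 6 it was 0.84 and called (adjusted p = 0.029 from limma). Slc6a6 was called in only 1 of the 12 fits with a liver left out, with an adjusted p of up to 0.15 from limma.

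Slc6a9, the glycine carrier GlyT-1, is described although it falls outside the rule for named genes, since its 4 listed transcripts overlap on chromosome 5 and can share reads. The transcript with the highest mean lay at 12.4 ± 11.3 RPKM in Control livers and 3.86 ± 3.05 in EtOH livers (SD, n = 6 per group), a log2 fold change of -1.74 (95% interval -3.28 to -0.21, adjusted p = 0.25 from limma). In 9 livers the RPKM was spread over the 4 transcripts at 19.7 to 30.5% each. In the other 3 it was not. Control animal 3 had 93.1% on the fourth transcript, EtOH animal 4 had 94.8% on the first, and EtOH animal 1 had 46.2% on the first and 53.8% on the third. Added up, the gene lay at 31.8 ± 4.16 RPKM in Control livers and 24.9 ± 5.40 in EtOH livers (SD, n = 6 per group), with a log2 fold change of -0.20 (adjusted p = 0.52 from limma). The value of the single transcript is therefore uncertain.

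**Figure D3:**
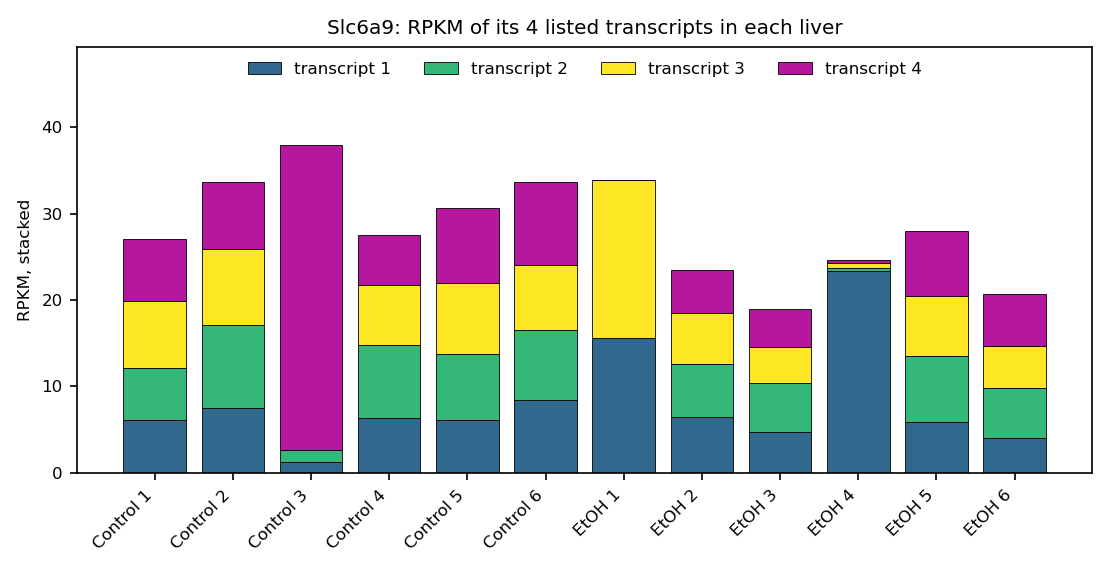
RPKM of the 4 listed Slc6a9 transcripts, stacked, in each of the 12 livers (linear axis from 0). The total lies between 19.0 and 37.9 RPKM, while the shares of the transcripts differ in Control animal 3, EtOH animal 1 and EtOH animal 4 from those in the other 9 livers.

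Other Slc6 members were near the detection limit. Slc6a20, a proline carrier, had 6 recovered reads from Control livers and 9 from EtOH livers, and Slc6a4, the serotonin carrier, 3 and 3.

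In the Slc36 and Slc43 families no member passed even an unadjusted p of 0.05. Slc36a1, the proton-coupled carrier PAT1 of lysosomes, ranged from 1.64 to 2.78 RPKM in Control livers (median 2.03) and from 1.65 to 2.80 in EtOH livers (median 2.04). Its log2 fold change was -0.02 (95% interval -0.37 to 0.33), and the ranges of the groups were nearly equal. Slc36a4 ranged from 0.598 to 1.47 RPKM (median 1.26) and from 0.504 to 1.61 (median 0.850), and Slc36a3 was seen in 1 read.

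Slc43a1, the LAT3 carrier of branched-chain amino acids, ranged from 12.2 to 21.5 RPKM in Control livers (median 15.9) and from 14.4 to 20.9 in EtOH livers (median 15.3), with a log2 fold change of 0.18 (95% interval -0.12 to 0.47). Slc43a2, the related LAT4 carrier, ranged from 0.969 to 2.07 RPKM (median 1.57) and from 1.28 to 2.50 (median 1.94), with a log2 fold change of 0.28 (95% interval -0.12 to 0.68, adjusted p = 0.52 from limma). Slc43a3, a purine nucleobase carrier despite its family, lay at 13.9 ± 1.29 and 13.0 ± 2.32 RPKM (SD, n = 6 per group).

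Summed by family, the Slc7 RPKM was 92.6 ± 25.9 in Control livers and 142 ± 14.4 in EtOH livers (SD, n = 6 per group), a ratio of 1.53. Slc7a2 made up 78.7% and 90.1% of these sums, and the other Slc7 members together went from 19.7 ± 1.77 to 14.1 ± 2.33. These other members include Slc7a6os, not a transporter, at 7.34 ± 1.21 and 5.57 ± 1.03 RPKM (SD, n = 6 per group). The Slc38 sum was 573 ± 31.6 and 618 ± 81.1, the Slc6 sum 108 ± 24.8 and 77.8 ± 7.45, and the Slc3 sum 25.5 ± 4.50 and 16.4 ± 1.77. The Slc6 sum holds the uncertain Slc6a9 transcript, at 12.4 ± 11.3 and 3.86 ± 3.05 RPKM (SD, n = 6 per group). Control animal 3 had the highest Slc6 sum, 158 RPKM. The Slc1 sum was 7.25 ± 1.68 and 10.5 ± 1.93. The Slc43 sum was 31.5 ± 4.18 and 31.3 ± 3.71, and the Slc36 sum 3.30 ± 0.489 and 3.04 ± 0.693. The ranges of the groups overlapped in every family except Slc7. All members together came to 842 ± 36.8 and 899 ± 102 RPKM (SD, n = 6 per group). The sums are a description, with no test. In the Slc38 family the leading gene Slc38a3 had the lower mean in EtOH livers while the family sum had the higher one.

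**Figure D4:**
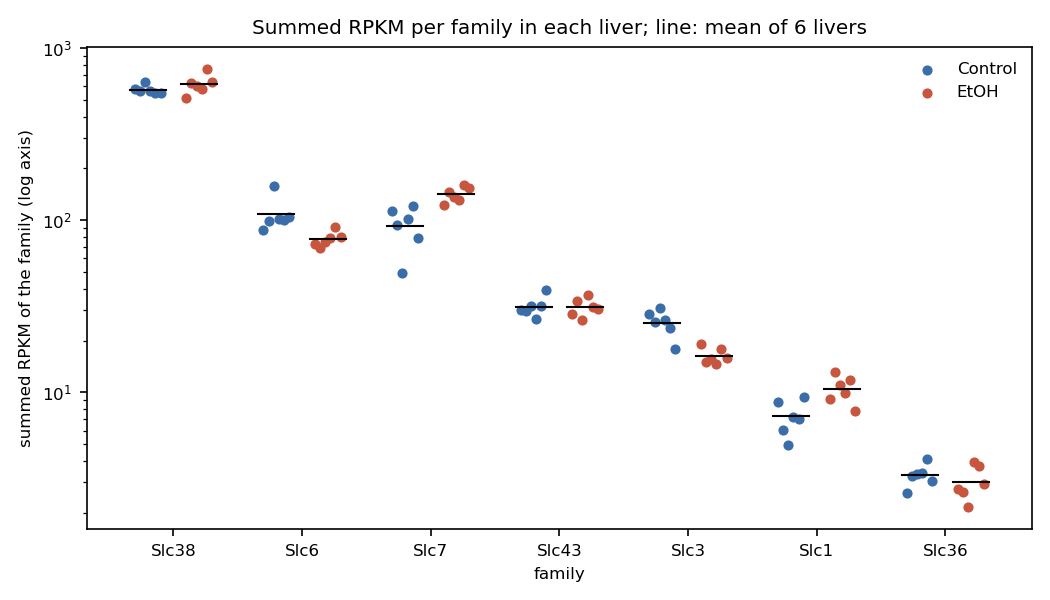
Summed RPKM of the members of each family in each liver (log axis), Control in blue and EtOH in red, with a line at the mean of 6 livers. The Slc38 sums average 573 and 618 RPKM, and the Slc7 sums of all EtOH livers, from 123 to 161, lie above those of all Control livers.

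At the low end, 14 of the 40 members had a mean RPKM under 0.2, with at most 16 recovered reads over the 6 livers of a group, and 7 of them had at most 3 reads in each group. They include Slc7a10 and Slc7a15, with 1 EtOH read and with 1 read in each group. For such members no difference could be seen at this depth. Where a transcript was above 0 in 1 liver only, the recovered number of reads is a minimum.

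Amino acid carriers of other families were compared as a list of 21, of which 17 could be tested. Called and higher were 2, Slc16a10 and Slc25a22, where 1.13% of all transcripts were called higher. Slc16a10, the TAT1 carrier through which aromatic amino acids leave the cell, lay at 13.8 ± 1.93 RPKM in Control livers and 17.3 ± 1.85 in EtOH livers (SD, n = 6 per group, adjusted p = 0.035 from limma). Slc25a22, a mitochondrial glutamate carrier, lay at 48.7 ± 6.65 and 59.2 ± 7.22 (SD, n = 6 per group, adjusted p = 0.029 from limma). The median log2 fold change of this list was 0.08. Among 7 tested partners and regulators of the transporters 1 was called, the aminopeptidase Anpep, which rose from 28.0 ± 1.52 to 33.9 ± 3.11 RPKM (SD, n = 6 per group, adjusted p = 0.0084 from limma).

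Slc3a2, Slc7a5, Slc7a1, Slc7a11 and Slc38a2 are known targets of the transcription factor ATF4, which is activated when amino acids run short. Of 23 other genes of the amino acid response, 3 were called lower and 1 higher, with a median log2 fold change of -0.33. Over all transcripts 1.29% were called lower and 1.13% higher, and 4.47% of those averaging 1 RPKM or more were called in either direction. Atf4 itself fell from 107 ± 15.7 to 64.3 ± 3.10 RPKM (SD, n = 6 per group, adjusted p = 0.0051 from limma), and Aars, the alanyl-tRNA synthetase, from 74.2 ± 5.32 to 50.9 ± 1.68 (SD, n = 6 per group, adjusted p = 0.0010 from limma). Psat1, an enzyme of serine synthesis, fell 3.17 times (adjusted p = 0.016 from limma). Nupr1, a stress-induced chromatin protein, rose from a mean of 136 to 203 RPKM (adjusted p = 0.024 from limma). Asns, asparagine synthetase, also added after the values were seen, lay at 0.709 ± 0.502 and 0.194 ± 0.0529 RPKM (SD, n = 6 per group, adjusted p = 0.18 from limma). Of the 5 transporters named as ATF4 targets, Slc3a2 was called lower, a call kept in 2 of the 12 fits with a liver left out, and Slc7a5, Slc7a1, Slc7a11 and Slc38a2 were not called.

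Of 21 tested genes of lysosomal amino acid sensing, 1 was called, which is near the share of 4.47% among all transcripts averaging 1 RPKM or more. This was Flcn, folliculin, which acts on the Rag GTPases and rose from 9.91 ± 1.28 to 13.8 ± 1.35 RPKM (SD, n = 6 per group, adjusted p = 0.012 from limma), and the median of the list was -0.08. Among 25 tested enzymes that degrade amino acids or handle glutamine, 6 were called higher and 1 lower, with a median of 0.25. Of all transcripts 1.13% were called higher and 1.29% lower. Most of these enzymes averaged 1 RPKM or more, and of all transcripts of that level 4.47% were called in either direction. The 6 were Sds, Got1, Oat, Cps1, Gls2 and Gnmt, and the one that fell was Csad, an enzyme of taurine synthesis. Oat, which degrades ornithine, rose 1.82 times (adjusted p = 0.013 from limma) and Cps1, the entry enzyme of the urea cycle, 1.45 times (adjusted p = 0.022 from limma). All these lists were chosen with results of these data known.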

How the data were processed

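Levels in the livers of 12 rats, 6 EtOH and 6 Control, are the RPKM values that the authors deposited. The authors mapped paired reads of 101 nucleotides in CLCbio Genomics Workbench 4.9, which also gave the RPKM. The sources used here name no genome build. The table also holds the authors' own fold changes, test statistics and p values, which were not used. The members and gene lists were chosen with earlier results of these data known.

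All 21718 transcripts above 0 in at least 1 liver were compared on quantile-normalized log2(RPKM + 0.5) in limma 3.58.1 (R 4.3.3), letting the variance follow a trend with the mean, two-sided, at a Benjamini-Hochberg adjusted p below 0.05. Whole reads were recovered for all of them from the steps between RPKM values, within 0.01 of a read. Exact permutation tests used all 924 regroupings. Alternatives were other pseudocounts, scalings, filters and scales, the pooled test of the study's methods, limma voom on recovered reads, the sum of a gene's transcripts, the animal number as a block, and each liver left out in turn. The procedure was tested on simulated data.

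Ranges, read counts or values by liver were given for called members and for members with a mean RPKM of at least 0.5 whose groups did not overlap. The same holds for the highest and the smallest-p member of each family, and for 8 transporters known from liver or the amino acid response. Other steps used scipy 1.17.1, pandas 2.3.3 and numpy 2.4.6 under Python 3.11.15. Promoter windows are from RefSeq (GRCr8), used for sequence only, and were matched to members by gene symbol. The values of 1 member are not reported here.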

Additional observations from a re-analysis of the deposited data

Results flagged for a closer look

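Among the 21 members with a mean RPKM of at least 1, each looked at in 2 groups of 6 livers, 2 values lay far from the rest of their group, where chance gives about 5% of the 42 groups. Slc38a3 was at 468 RPKM in Control animal 3, and the next highest Control liver was at 384. The listed Slc6a9 transcript was at 35.3 RPKM in the same animal, and the next highest Control liver was at 9.68.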

How the results depend on the processing

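Of the members, 2 were called in the comparison as reported, 1 higher and 1 lower. Leaving out 1 liver at a time, the count was 1 to 3, with 1 to 2 higher and 0 to 1 lower. A minimum mean RPKM of 1 gave 5 calls, 4 of them higher, where 7.76% of 11086 transcripts were called; fewer transcripts were then tested. No mean-variance trend, and the unmoderated pooled test on square-root values, gave 1 call each and 0 lower. Limma on square-root values gave 2 higher and 0 lower. Limma voom on recovered reads, and the sum of a gene's transcripts, gave 2 higher calls, and no normalization between livers gave 2 lower. In these cases the cause was not tested.

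The animal number as a replicate block gave 0 calls among the members (adjusted p = 0.066 for Slc38a4 and 0.089 for Slc3a2 from limma) and 113 over all transcripts; 0 were higher and 0 lower, and at an unadjusted p below 0.05 8 members stood. Same-numbered animals share only a number: their deviations correlated between -0.067 and 0.032, and 1 of 6 Control animals correlated best with the EtOH animal of its number.

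With all listed transcripts added, the Slc1 sum was 9.06 for Control and 12.8 for EtOH, and the Slc6 sum for EtOH was 98.9. The Slc6 sum for Control rose too and is not to be read from the main fit. In this setting Slc6a9 went from 12.4 to 31.8 RPKM in Control livers and from 3.86 to 24.9 in EtOH livers. The log2 fold change of Slc36a1 was 0.039 with median scaling and ran from -0.094 to 0.053 with single livers left out, and that of Slc1a5 from -0.029 (without EtOH animal 5) to 0.28. The difference (EtOH minus Control) in the log2 ratio of Slc7a7 to Slc3a2 ran from -0.26 to 0.058 (above 0 without Control animal 6 or EtOH animal 5), and that of Slc6a13 to Slc6a12 from -0.18 to 0.049 (above 0 without Control animal 3). The median log2 fold change on square-root values was not computed, since its unit differs. Members with at most 3 recovered reads in each group were too shallow to compare.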
